A study of Homo sapiens with 9 samples.

Results

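RNA of 10 genes was followed across 786-O cells, an established human line of clear cell kidney cancer in which loss of VHL lets HIF2α (EPAS1) build up at normal oxygen. The genes were chosen by name and were 5 ligands of the EGF family (TGFA, AREG, EREG, HBEGF and BTC) and 5 receptor tyrosine kinases (EGFR, ERBB2, ERBB3, MET and AXL), out of 38021 genes in the count table. All 10 had a row and all 10 were tested in every comparison. The cells expressed a lentiviral short hairpin RNA that was a control (shControl) or that targeted ARNT (shARNT) or BMAL1 (shBMAL1, gene symbol ARNTL), and each group had 3 libraries named biological replicates in the labels. All groups had been infected, selected and maintained in puromycin and grown in medium with 10% fetal bovine serum, which itself contains growth factors. The labels name 1 shRNA per target without its sequence, the study lists 2 hairpins against BMAL1, and nothing in the labels gives separate infections, so p values measure the spread between these libraries only.

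EGF-family ligands are made as membrane-anchored precursors that proteases cut at the cell surface, and the freed ligand binds EGFR on the same cell or on its neighbours. EGFR then pairs with itself or with ERBB2 or ERBB3, a partner with very weak kinase activity, and signals through RAS-MAPK and PI3K-AKT. TGFA is a well known HIF2α target in VHL-deficient kidney cancer cells, where it can sustain growth through EGFR, and MET and AXL are receptors for HGF and GAS6 that signal through many of the same relay proteins.

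The comparisons ask how each ligand and receptor depended on ARNT, the classical partner of HIF2α, and on BMAL1, the clock transcription factor of the same protein family. Libraries held 33793045 to 35444735 reads. The targeted RNA was lower where the labels say so, with ARNT at a mean of 1225 normalised read counts in shARNT against 2352 in shControl and ARNTL at 325.9 in shBMAL1 against 761.1. Each was also called lower under the other hairpin, ARNT at −0.23 on the log2 scale in shBMAL1 (adjusted p = 0.0187) and ARNTL at −0.26 in shARNT (adjusted p = 0.0294). The first call was lost without replicate 2 of shControl (−0.16, adjusted p = 0.162) or of shBMAL1 (−0.19, adjusted p = 0.109), and the second without replicate 2 of shControl (−0.23, adjusted p = 0.15) or replicate 3 of shARNT (−0.19, adjusted p = 0.22). EPAS1 itself fell by 0.23 on the log2 scale in shARNT (SE 0.059, adjusted p = 0.000563) and was not called in shBMAL1 (−0.06, 95% interval −0.19 to 0.07). These values are RNA. By immunoblot, the study saw no reduction of HIF2α protein with either depletion. It also saw slightly more ARNT protein when BMAL1 was depleted, and slightly more BMAL1 protein when ARNT was. RNA of HIF1A, the gene of the related HIF1α, was 0.42 higher in shARNT (SE 0.058, adjusted p = 2e-11) and 0.61 higher in shBMAL1 (SE 0.067, adjusted p = 2.36e-18). These counts do not show whether HIF1α protein was made. Mitochondrial genes took 5.46% to 7.14% of reads in shControl, 7.59% to 8.74% in shARNT and 8.71% to 9.66% in shBMAL1. The 8 renal epithelial markers summed to 51121 to 53264 normalised read counts in shControl, 69195 to 71379 in shARNT and 82235 to 86690 in shBMAL1 (UMOD at 0 in all libraries). The place of shBMAL1 in this order rested on the cadherin CDH6, with means of 13874, 27963 and 45691 in the same groups. Without CDH6 the sums were 37667 to 38807, 42263 to 42969 and 37078 to 42370, so that shControl still lay below shARNT while shBMAL1 overlapped both. Of the 7 of these markers that were tested, 4 were higher and 0 lower in shARNT, and 4 were higher and 2 lower (PAX8 and KRT18) in shBMAL1, where the cadherin CDH16 had the greatest log2 fold change (2.31, adjusted p = 1.5e-142). Over all genes tested, 16.5% were called higher and 19% lower in shARNT, and 17.4% higher and 19.4% lower in shBMAL1. The part of the mitochondrial share and of these markers in the results was not tested. Leukocyte markers summed to 13.6 to 28.0 (5 genes, CD3E at 0), endothelial markers to 7.8 to 21.99 (5 genes, CDH5 at 0) and fibroblast markers to 209.2 to 425.9 (6 genes, COL1A2 at 0), the last with 236.9 to 294.2 in shControl, 209.2 to 220.2 in shARNT and 370.1 to 425.9 in shBMAL1. In bulk RNA, fewer cells that express a gene and less RNA per cell cannot be told apart.

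Both transcription factors belong to families whose complexes recognise short DNA cores, ACGTG or GCGTG for HIF and CACGTG, the E-box, for BMAL1 with CLOCK. These letters were searched on both strands of the window from 250 bases before to 50 bases after each RefSeq start site on GRCh38.p14, and every CACGTG also holds an ACGTG. Of the members, 9 had a window and ERBB3 had none. Over all 35114 windows of annotated genes, 21.4% held ACGTG, 36.5% GCGTG, 48.4% at least 1 of these cores and 7.26% the E-box. Among the 12 windows of the members, 7 held a core. The 250 bases upstream of 5 start sites are printed for TGFA, AREG, EREG and AXL, as examples of members with a core in at least 1 window. Other called members, among them HBEGF, EGFR and ERBB2, are not printed. The bases are read 5′ to 3′ on the strand of the gene, with capitals marking a core on either strand (CACGT and CACGC are the cores read from the other strand).
TGFA, start site 1, chr2:70553827-70554076, minus strand: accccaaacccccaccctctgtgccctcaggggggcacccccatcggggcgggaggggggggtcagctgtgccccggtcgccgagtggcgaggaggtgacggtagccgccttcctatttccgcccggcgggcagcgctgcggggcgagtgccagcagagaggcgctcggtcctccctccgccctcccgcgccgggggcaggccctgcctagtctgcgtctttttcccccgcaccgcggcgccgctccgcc
TGFA, start site 2, chr2:70553447-70553696, minus strand: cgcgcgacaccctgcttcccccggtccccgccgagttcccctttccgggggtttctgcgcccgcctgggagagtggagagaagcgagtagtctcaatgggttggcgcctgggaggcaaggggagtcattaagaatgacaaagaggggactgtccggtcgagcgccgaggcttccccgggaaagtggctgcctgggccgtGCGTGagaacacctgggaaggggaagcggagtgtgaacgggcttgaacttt
AREG, chr4:74444886-74445135, plus strand: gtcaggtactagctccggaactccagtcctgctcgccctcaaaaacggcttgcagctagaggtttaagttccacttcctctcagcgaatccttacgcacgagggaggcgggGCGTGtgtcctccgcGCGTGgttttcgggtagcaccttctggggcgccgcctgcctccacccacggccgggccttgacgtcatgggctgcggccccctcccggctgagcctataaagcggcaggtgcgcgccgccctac
EREG, chr4:74364895-74365144, plus strand: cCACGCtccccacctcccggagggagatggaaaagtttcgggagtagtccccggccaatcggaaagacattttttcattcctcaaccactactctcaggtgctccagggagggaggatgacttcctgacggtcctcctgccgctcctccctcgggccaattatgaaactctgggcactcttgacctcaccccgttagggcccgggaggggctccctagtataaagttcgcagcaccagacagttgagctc
AXL, start site 2, chr19:41226505-41226754, plus strand: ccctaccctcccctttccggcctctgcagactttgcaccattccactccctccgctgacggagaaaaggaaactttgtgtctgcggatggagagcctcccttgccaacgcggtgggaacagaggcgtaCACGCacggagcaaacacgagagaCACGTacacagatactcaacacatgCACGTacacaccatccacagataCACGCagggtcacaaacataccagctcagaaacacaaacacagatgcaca
The first TGFA window held no core and the second held 1 GCGTG, which began 51 bases before the start site. AREG held 2 GCGTG cores, at 139 and 124 bases before its start. EREG held a GCGTG on the other strand 249 bases before its start and an ACGTG at position 39 after it, beyond the printed stretch. The second AXL window held 6 cores in all, 2 of ACGTG and 4 of GCGTG, of which 4 lie in the printed stretch, whereas the first AXL window held 0. HBEGF and BTC held 1 core each, and both EGFR windows and the ERBB2 window held 0. Of the members, MET alone held the E-box, at position 4 after its start. A match describes the letters only and is not a site.

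Levels are compared between genes as normalised read counts per kilobase of exon (the union of annotated exons), since longer RNAs yield more reads. In shControl this level was 7008 for MET, 2736 for AXL, 2322 for TGFA and 959.0 for EREG (means, n = 3). Below these stood ERBB2 at 354.1, EGFR at 312.3 and AREG at 277.9, and then HBEGF at 32.3, BTC at 4.04 and ERBB3 at 1.23. By this length, neighbours in this order did not overlap between libraries, except ERBB2 with EGFR and EGFR with AREG, whose ranges did. TGFA RNA was thus the most abundant of the 5 ligands per kilobase, and BTC and ERBB3 were close to the detection limit.

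Of the 10 members, 5 were called in shARNT against shControl, 3 lower (TGFA, AREG and AXL) and 2 higher (EREG and MET), at an adjusted p under 0.1. Over all genes tested in this comparison 35.4% were called, 19% lower and 16.5% higher. In shBMAL1 against shControl 7 were called, 5 lower (TGFA, AREG, EREG, HBEGF and AXL) and 2 higher (EGFR and ERBB2), where 36.8% of all genes were called, 19.4% lower and 17.4% higher. In shBMAL1 against shARNT 6 were called, with EREG and HBEGF lower and TGFA, EGFR, ERBB2 and AXL higher in shBMAL1, where 35.3% of all genes were called, 18% lower and 17.3% higher. The median log2 fold change of the 10 was −0.02, −0.34 and −0.05 in the 3 comparisons, beside 0.0028, 0.015 and 0.0094 over all genes tested. Both knockdowns share the shControl libraries, so their own values are given side by side.

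**Figure D1:**
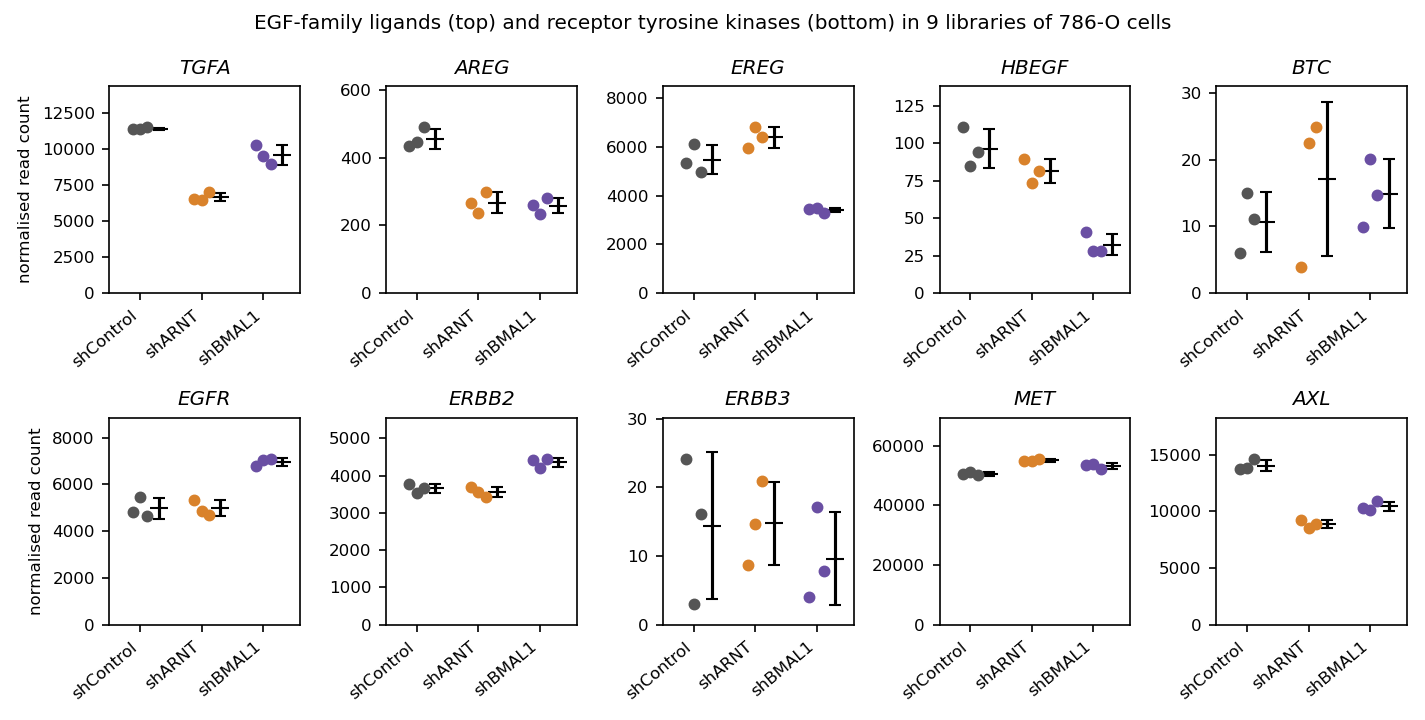
Normalised read counts (vertical axes, each from 0) of the 5 ligands (top) and 5 receptors (bottom) in the 9 libraries, with 1 point per library and the mean ± SD (n = 3) as a black bar beside each group. TGFA was lowest in shARNT, EREG and HBEGF in shBMAL1, and EGFR and ERBB2 were highest in shBMAL1.

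TGFA, the EGFR ligand at chr2:70674416-70781325 on GRCh37 (minus strand), fell in both knockdowns and further in shARNT. Its normalised read counts were 11370, 11381 and 11504 in shControl, 6540, 6452 and 6990 in shARNT, and 10308, 9489 and 8989 in shBMAL1. The 3 groups did not overlap, with every shBMAL1 library between the other two groups. The log2 fold change was −0.77 (SE 0.050, adjusted p = 1.9e-51) in shARNT, a decrease of RNA to 0.585 of the control level. In shBMAL1 it was −0.25 (SE 0.066, adjusted p = 0.000734), or 0.839 of the control level. The difference between the knockdowns was itself called, with TGFA 0.53 higher on the log2 scale in shBMAL1 (SE 0.069, adjusted p = 8.87e-13). Of its promoter windows, only the second held a core.

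AREG, amphiregulin, is a low-affinity EGFR ligand at chr4:75310853-75320722 on GRCh37 (plus strand), next to EREG in the same ligand cluster. AREG stood at normalised read counts of 434, 446 and 489 in shControl, 265, 238 and 298 in shARNT, and 261, 235 and 280.1 in shBMAL1. Every knockdown library lay below every control library, and the 2 knockdowns overlapped. AREG fell by 0.77 on the log2 scale in shARNT (SE 0.13, adjusted p = 3.7e-08). It fell by 0.82 in shBMAL1 (SE 0.13, adjusted p = 6.42e-09). The difference between the knockdowns was not called, at −0.05 with a 95% interval of −0.34 to 0.25, and its sign turned to 0.04 without replicate 3 of shARNT and to 0.02 without replicate 2 of shBMAL1. GRCh37 carries a near-identical copy, AREGB, at chr4:75480629-75490486, which had no row of its own here, so the AREG values are uncertain to the extent that reads were divided or dropped.

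EREG, epiregulin, a ligand of EGFR and ERBB4 at chr4:75230862-75254466 on GRCh37 (plus strand), fell in shBMAL1 and was slightly higher in shARNT. Normalised read counts of EREG were 5327, 6126 and 4984 in shControl, 5974, 6798 and 6389 in shARNT, and 3463, 3474 and 3302 in shBMAL1. All shBMAL1 libraries lay below the rest, whereas shARNT and shControl overlapped. EREG fell by 0.68 on the log2 scale in shBMAL1 (SE 0.081, adjusted p = 5.81e-16). It was 0.22 higher in shARNT (SE 0.073, adjusted p = 0.0102). This rise lost its call without replicate 3 of shControl (0.16, adjusted p = 0.112) and without replicate 2 of shARNT (0.18, adjusted p = 0.107). Between the knockdowns EREG was 0.91 lower in shBMAL1 on the log2 scale (−0.91, SE 0.070, adjusted p = 1.51e-36).

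HBEGF, heparin-binding EGF-like growth factor, at chr5:139712428-139726188 on GRCh37 (minus strand), was a minor ligand and changed by the greatest factor of the members that were called. In the 9 libraries its normalised read counts were 110.7, 84.97 and 94.01 in shControl, 89.64, 73.65 and 81.5 in shARNT, and 40.71, 28.22 and 28.4 in shBMAL1. The shBMAL1 libraries lay below all others, and shARNT overlapped shControl. HBEGF fell by 1.58 on the log2 scale in shBMAL1 (SE 0.29, adjusted p = 8.8e-07), to 0.336 of the control level. It was not called in shARNT, at −0.24 with a 95% interval of −0.70 to 0.22. The difference between the knockdowns was −1.33 (SE 0.30, adjusted p = 8.47e-05).

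BTC, betacellulin, at chr4:75669969-75719733 on GRCh37 (minus strand), stood at 3.9 to 24.9 normalised read counts in all 9 libraries. At this depth no difference was detectable, with log2 fold changes of 0.68 (95% interval −0.66 to 2.01) in shARNT and 0.47 (−0.75 to 1.70) in shBMAL1.

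Summed per kilobase of exon, the 5 ligands held 3546 to 3692 normalised read counts in shControl, 2569 to 2758 in shARNT and 2592 to 2879 in shBMAL1. The pool was thus smaller in both knockdowns, whose ranges overlapped each other, but its make-up differed. TGFA made up 62.7% to 66.0% of the pool in shControl, 49.0% to 51.8% in shARNT and 70.5% to 72.8% in shBMAL1. EREG made up 24.6% to 29.0%, 40.5% to 44.4% and 21.1% to 22.5% in the same order. The ratio of TGFA to EREG was 2.44 ± 0.26 with shControl, 1.21 ± 0.098 with shARNT and 3.26 ± 0.17 with shBMAL1 (SD, n = 3), and the groups did not overlap. AREG made up 7.35% to 8.40%, 5.40% to 6.58% and 5.30% to 6.58%. These shares were described and not tested, and they count RNA, not secreted protein.

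**Figure D2:**
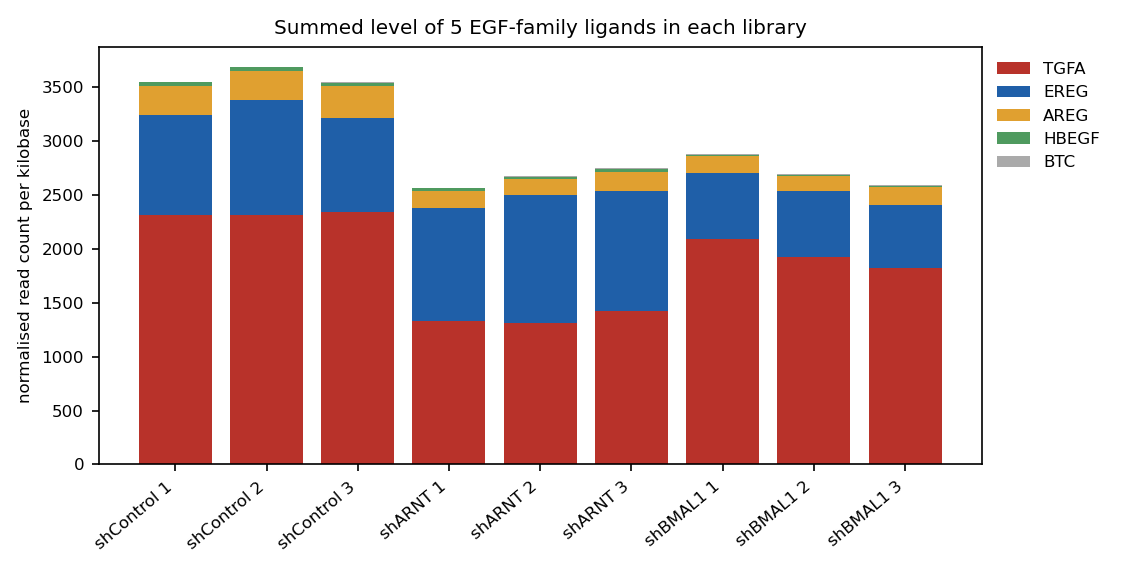
Stacked bars of the 5 ligands in each library, in normalised read counts per kilobase of exon (vertical axis, from 0). The sum was 3546 to 3692 in shControl and 2569 to 2879 in the knockdown libraries, with the TGFA part smaller in shARNT and the EREG part smaller in shBMAL1.

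EGFR, the receptor of these ligands, at chr7:55086710-55279321 on GRCh37 (plus strand), rose in shBMAL1 and not detectably in shARNT. Its normalised read counts were 4831, 5476 and 4627 in shControl, 5347, 4876 and 4691 in shARNT, and 6772, 7032 and 7086 in shBMAL1. All shBMAL1 libraries were above all others, and shARNT overlapped shControl. EGFR was 0.48 higher on the log2 scale in shBMAL1 (SE 0.074, adjusted p = 1.02e-09), or 1.40 times the control level. In shARNT the difference was 0.0013, with a 95% interval of −0.14 to 0.14. Against shARNT, shBMAL1 was 0.49 higher (SE 0.068, adjusted p = 3.24e-11). The gene overlaps an antisense RNA, EGFR-AS1, which took 5.17% to 7.69% of the reads of the pair, and the pair's counts were fractional but summed to whole numbers within 0.01 in 9 of 9 libraries. With both rows added together the log2 fold change in shBMAL1 was 0.48 (adjusted p = 2.65e-09).

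ERBB2, the co-receptor that binds no ligand of its own, at chr17:37844167-37886679 on GRCh37 (plus strand), followed EGFR with a smaller change. Normalised read counts of ERBB2 were 3770, 3534 and 3659 in shControl, 3695, 3572 and 3430 in shARNT, and 4410, 4215 and 4446 in shBMAL1. The shBMAL1 libraries were the highest, and the other groups overlapped. ERBB2 rose by 0.25 on the log2 scale in shBMAL1 (SE 0.065, adjusted p = 0.000696). In shARNT it was not called, at −0.03 with a 95% interval of −0.15 to 0.08. The direct difference was 0.29 (SE 0.066, adjusted p = 9.34e-05). The gene overlaps PGAP3 and MIEN1 on the opposite strand, and the strand setting of the counting is not given in the sources used here.

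ERBB3, which pairs with ERBB2, at chr12:56470583-56497289 on GRCh37 (plus strand), stood at 3.0 to 24.2 normalised read counts in the 9 libraries and was not called in any comparison, with log2 fold changes of 0.04 (95% interval −1.27 to 1.34) in shARNT and −0.59 (−2.06 to 0.89) in shBMAL1.

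MET, the receptor for HGF, at chr7:116312250-116438431 on GRCh37 (plus strand), was the most abundant member and moved little. Its normalised read counts were 50412, 51309 and 50156 in shControl, 54782, 54874 and 55575 in shARNT, and 53582, 53975 and 52180 in shBMAL1. The control libraries were the lowest and the shARNT libraries the highest, and the 3 groups did not overlap. The rise of 0.12 on the log2 scale in shARNT was called (SE 0.041, adjusted p = 0.0103). The value of 0.07 in shBMAL1 was not (95% interval −0.03 to 0.18), nor was the direct difference of −0.05 (−0.15 to 0.05). RNA of the ligand HGF was nearly absent, at a mean of 0.11 normalised read counts over the 9 libraries.

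AXL, the receptor for GAS6, at chr19:41725128-41767671 on GRCh37 (plus strand), fell in both knockdowns, as TGFA did. Its normalised read counts were 13729, 13784 and 14627 in shControl, 9268, 8568 and 8901 in shARNT, and 10317, 10149 and 10881 in shBMAL1. The groups did not overlap, and shBMAL1 stood between the other two. AXL fell by 0.65 on the log2 scale in shARNT (SE 0.051, adjusted p = 5.64e-35). It fell by 0.43 in shBMAL1 (SE 0.061, adjusted p = 4.82e-11). The direct difference was 0.23 higher in shBMAL1 (SE 0.062, adjusted p = 0.00146). A long non-coding RNA lies on the opposite strand within AXL.

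**Figure D3:**
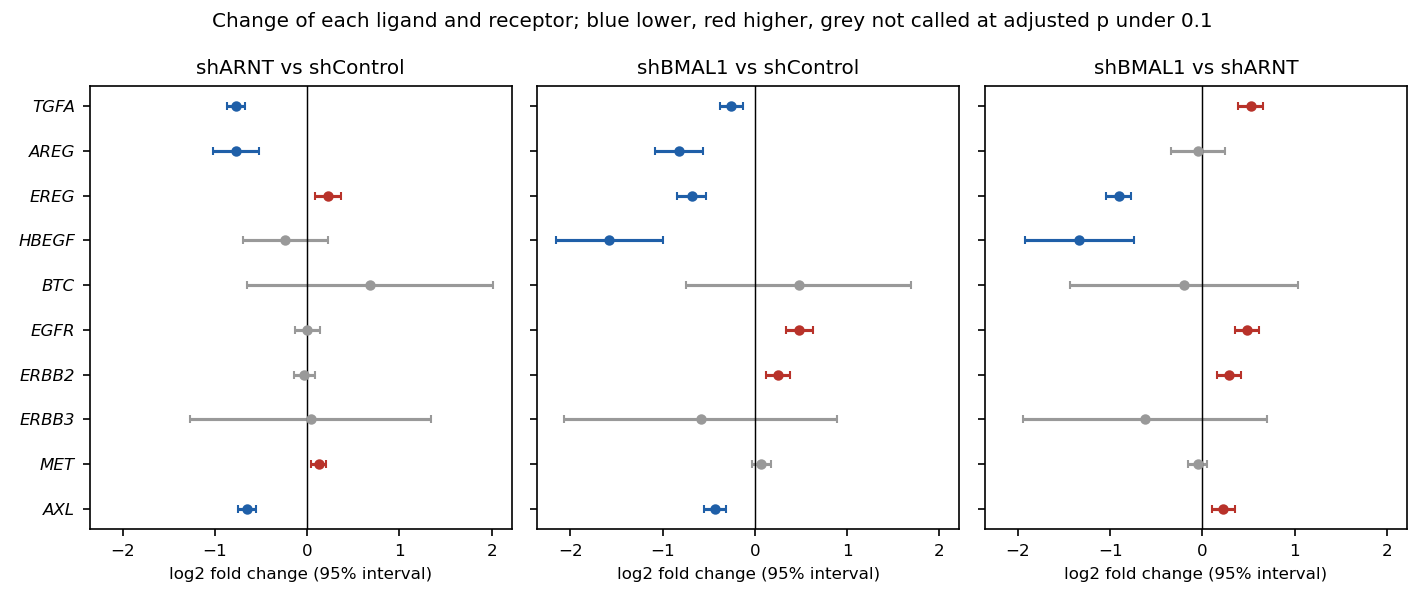
Log2 fold changes of the 10 members (horizontal axis, with 95% intervals, n = 3 libraries per group) in shARNT and in shBMAL1 against shControl and in shBMAL1 against shARNT, coloured by call. BTC and ERBB3 have the widest intervals, and TGFA, EGFR, ERBB2 and AXL lie above 0 in the right panel while EREG and HBEGF lie below it.

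The rest of the pathway was read from 6 lists of 80 genes in all. In shARNT 73 were tested, of which 26 were lower and 8 higher (46.6% called, beside 35.4% of all genes). In shBMAL1 76 were tested, of which 32 were lower and 12 higher (57.9%, beside 36.8%). In the direct comparison 76 were tested, of which 24 were lower and 14 higher in shBMAL1 (50%, beside 35.3%). Calls over all genes were split into 19% lower and 16.5% higher in shARNT and 19.4% and 17.4% in shBMAL1, and the counts of the single lists are read beside these shares, with no test of a list. The share over all genes in shBMAL1 depended on the low-count filter. There 7005 of 19036 genes tested were called, but 7239 of 15864 with at least 10 counts in at least 3 libraries. List shares in shBMAL1 are therefore not read as an excess over expressed genes. The median log2 fold change over the lists was −0.09 in shARNT and −0.16 in shBMAL1.

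Among 9 other ligands, 1 of 5 tested was lower in shARNT and 0 higher, and in shBMAL1 3 of 6 tested were lower and 1 higher. GAS6, the ligand of AXL, stood at 3036, 3086 and 3178 normalised read counts in shControl, 1926, 1788 and 1887 in shARNT, and 1265, 1270 and 1398 in shBMAL1. The groups did not overlap, so the receptor AXL and its ligand were both lower in each knockdown, but in opposite order, with AXL lowest in shARNT and GAS6 lowest in shBMAL1. GAS6 fell by 0.73 on the log2 scale in shARNT (SE 0.061, adjusted p = 2.08e-30) and fell by 1.24 in shBMAL1 (SE 0.075, adjusted p = 4.22e-59), and the direct difference was −0.51 (adjusted p = 3.86e-09). The neuregulin NRG1, a ligand of ERBB3 and ERBB4, averaged 1199 normalised read counts with shControl, 1284 with shARNT and 703.2 with shBMAL1 and in shBMAL1 fell by 0.77 (SE 0.092, adjusted p = 1.66e-15). NRG2 in shBMAL1 fell by 1.04 (SE 0.30, adjusted p = 0.00275). PROS1, a ligand of the AXL relatives MERTK and TYRO3, rose in shBMAL1 by 0.26 (adjusted p = 0.0167), a call lost without replicate 2 of shBMAL1 (0.22, adjusted p = 0.12).

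Among 4 other receptors, 2 were tested in shARNT, with 0 lower and 1 higher, and 3 in shBMAL1, with 1 lower and 1 higher. TYRO3 averaged 1232 normalised read counts with shControl, 1153 with shARNT and 869.7 with shBMAL1 and in shBMAL1 fell by 0.50 on the log2 scale (SE 0.094, adjusted p = 9.24e-07). MERTK was higher by 0.41 in shARNT (adjusted p = 0.0424) and by 0.51 in shBMAL1 (adjusted p = 0.0289). Without replicate 1 of shControl these calls were lost, at 0.28 (adjusted p = 0.276) and 0.38 (adjusted p = 0.188). They were also lost without replicate 1 of shARNT (0.33, adjusted p = 0.218) and without replicate 1 of shBMAL1 (0.27, adjusted p = 0.336).

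Among 9 genes of ligand processing, 5 were lower and 2 higher in shARNT (77.8% called, beside 35.4% of all genes), and 3 were lower and 1 higher in shBMAL1 (44.4%, beside 36.8%). RHBDF2, which brings the sheddase ADAM17 to the cell surface, had 8509, 8003 and 8619 normalised read counts in shControl, 4967, 4995 and 5111 in shARNT, and 5480, 4816 and 4928 in shBMAL1. It was lower in every knockdown library, by 0.73 on the log2 scale in shARNT (−0.73, SE 0.052, adjusted p = 2.34e-43) and to a like extent in shBMAL1 (−0.73, SE 0.070, adjusted p = 2.03e-23), with a direct difference of 0.013 that was not called (adjusted p = 0.92). ADAM17, which sheds TGFA and AREG, averaged 2905 normalised read counts with shControl, 3219 with shARNT and 2612 with shBMAL1, with a direct difference of shBMAL1 from shARNT that was called (−0.30, SE 0.069, adjusted p = 8.54e-05). Its rise of 0.15 in shARNT (adjusted p = 0.0325) was lost without replicate 1 of shControl (adjusted p = 0.126) or replicate 3 of shARNT (adjusted p = 0.187). Its value of −0.16 in shBMAL1 (adjusted p = 0.0636) was lost without any 1 of the shControl replicates or without replicate 2 or 3 of shBMAL1 (adjusted p between 0.125 and 0.21). FURIN, a convertase that activates ADAM proteases, fell by 0.23 in shARNT (adjusted p = 0.00082) and fell by 0.74 in shBMAL1 (adjusted p = 8.78e-19). ADAM12 fell by 0.40 in shARNT (adjusted p = 5.59e-05) and had a value of 0.12 in shBMAL1, which was not called.

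Among 26 genes that relay the signal, 5 were lower and 4 higher in shARNT, and 8 were lower and 4 higher in shBMAL1. The share called in shARNT, 34.6%, was near the 35.4% of all genes. That in shBMAL1 was 46.2%, beside 36.8% of all genes and beside 7239 of 15864 under the stricter count filter. GAB2, a docking protein for PI3K and SHP2, averaged 288.8 normalised read counts with shControl, 268.9 with shARNT and 142.1 with shBMAL1 and in shBMAL1 fell by 1.03 on the log2 scale (SE 0.17, adjusted p = 1.69e-08). In shBMAL1, SHC1, an adaptor bound by active EGFR, fell by 0.42 (SE 0.067, adjusted p = 7.87e-09). MAP2K2, which encodes the kinase MEK2, fell by 0.40 (SE 0.095, adjusted p = 0.000146). PTPN11, which encodes the phosphatase SHP2, fell by 0.38 (SE 0.082, adjusted p = 2.71e-05). None of these 4 was called in shARNT, and the direct test put each below its shARNT level, with adjusted p from 3.57e-10 for SHC1 to 0.00208 for PTPN11. PIK3R2, a regulatory subunit of PI3K, fell by 0.31 in shARNT (adjusted p = 7.24e-05) and rose by 0.29 in shBMAL1 (adjusted p = 0.00183). NRAS fell by 0.36 in shARNT (adjusted p = 1.25e-05), and AKT1 fell by 0.24 in shARNT (adjusted p = 0.000312) and fell by 0.32 in shBMAL1 (adjusted p = 0.000261).

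Among 16 genes that downregulate the receptor or feed back on it, 5 were lower and 1 higher in shARNT, and 8 were lower and 2 higher in shBMAL1. The share called was 37.5% in shARNT, near the 35.4% of all genes, and 62.5% in shBMAL1 beside 36.8%. ERRFI1 (MIG6), which binds EGFR and blocks its kinase, had 43921, 41559 and 43772 normalised read counts in shControl, 23292, 24682 and 23064 in shARNT, and 34443, 37237 and 34275 in shBMAL1. The groups did not overlap and stood in the order seen for TGFA. ERRFI1 fell by 0.86 on the log2 scale in shARNT (SE 0.048, adjusted p = 3.7e-69) and fell by 0.29 in shBMAL1 (SE 0.060, adjusted p = 1.53e-05), with a direct difference of 0.58 (adjusted p = 4.62e-19). DUSP7, a phosphatase of ERK, fell by 0.64 in shARNT (adjusted p = 2.68e-08) and fell by 1.30 in shBMAL1 (adjusted p = 2.43e-22). SPRY2, a Sprouty inhibitor of the pathway, fell by 0.46 in shARNT (adjusted p = 0.000673) and fell by 0.60 in shBMAL1 (adjusted p = 1.32e-05). The ubiquitin ligases that mark EGFR for degradation went apart. CBL fell by 0.32 in shARNT (adjusted p = 0.00109) and fell by 0.75 in shBMAL1 (adjusted p = 3.31e-12), while CBLB rose by 0.44 in shARNT (adjusted p = 3.12e-07) and by 0.37 in shBMAL1 (adjusted p = 0.000213). LRIG3, a member of a family of receptor regulators, rose by 0.44 in shBMAL1 (adjusted p = 9.99e-05).

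Among 16 genes that growth factor signalling is known to induce, 10 of 15 tested were lower and 0 higher in shARNT, and in shBMAL1 9 of 16 were lower and 3 higher. Over all genes 19% were lower and 16.5% higher in shARNT, and 19.4% and 17.4% in shBMAL1. Their median log2 fold changes were −0.25 and −0.45. FOSL1, an AP-1 subunit, averaged 11869 normalised read counts with shControl, 6071 with shARNT and 4547 with shBMAL1, and fell by 0.96 in shARNT (SE 0.13, adjusted p = 5.41e-12) and fell by 1.39 in shBMAL1 (SE 0.098, adjusted p = 4.96e-43). PLAUR, the urokinase receptor, fell by 0.65 in shARNT (adjusted p = 3.93e-14) and fell by 1.67 in shBMAL1 (adjusted p = 2.26e-67). ETV4, an ETS factor downstream of ERK, fell by 0.56 in shARNT (adjusted p = 0.000114) and fell by 2.04 in shBMAL1 (adjusted p = 1.86e-25). CCND1, which encodes cyclin D1 and is also a known HIF2α target in kidney cancer cells, fell by 0.85 in shARNT (adjusted p = 6.17e-45) and fell by 0.58 in shBMAL1 (adjusted p = 1.44e-13).

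The 3 genes of the same list that were higher in shBMAL1 were EGR1, EGR2 and JUNB (0.21, adjusted p = 0.0947), all immediate early genes, but other immediate early genes of the list fell (JUN, −0.66, adjusted p = 2.04e-09; IER2, −0.33, adjusted p = 0.021; IER3, −0.63, adjusted p = 3.44e-07) or were not called (FOS, −0.06). JUNB, JUN, IER2, IER3 and FOS were named here after their values were seen. The JUNB libraries of shBMAL1 overlapped those of shControl, and its call was lost in 5 of the 6 fits that left out 1 library (adjusted p from 0.132 without replicate 1 of shBMAL1 to 0.417 without replicate 1 of shControl), the exception being the fit without replicate 3 of shControl (0.34, adjusted p = 0.00183). The JUNB call was also lost with the replicate number as a block (adjusted p = 0.115), with TMM size factors (adjusted p = 0.102) and with no low-count filter (adjusted p = 0.122). The IER2 call was lost without replicate 1 of shControl (−0.30, adjusted p = 0.111), replicate 1 of shBMAL1 (−0.28, adjusted p = 0.101) or replicate 2 of shBMAL1 (−0.26, adjusted p = 0.153), while JUN and IER3 stayed lower in all 6 fits. EGR1 had 222, 233 and 235.5 normalised read counts in shControl, 291, 258 and 221 in shARNT, and 1250, 1149 and 964.5 in shBMAL1. Every shBMAL1 library was above all others, and EGR1 rose by 2.28 on the log2 scale (SE 0.12, adjusted p = 7.14e-76), while shARNT overlapped shControl and was not called (0.16, adjusted p = 0.477). EGR2 rose by 1.32 in shBMAL1 (SE 0.22, adjusted p = 2.66e-08). In shARNT EGR2 had a value of −0.74 (adjusted p = 0.0453), a call lost without replicate 2 of shControl (−0.51, adjusted p = 0.324), replicate 1 of shARNT (−0.73, adjusted p = 0.125) or replicate 3 of shARNT (−0.59, adjusted p = 0.22).

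**Figure D4:**
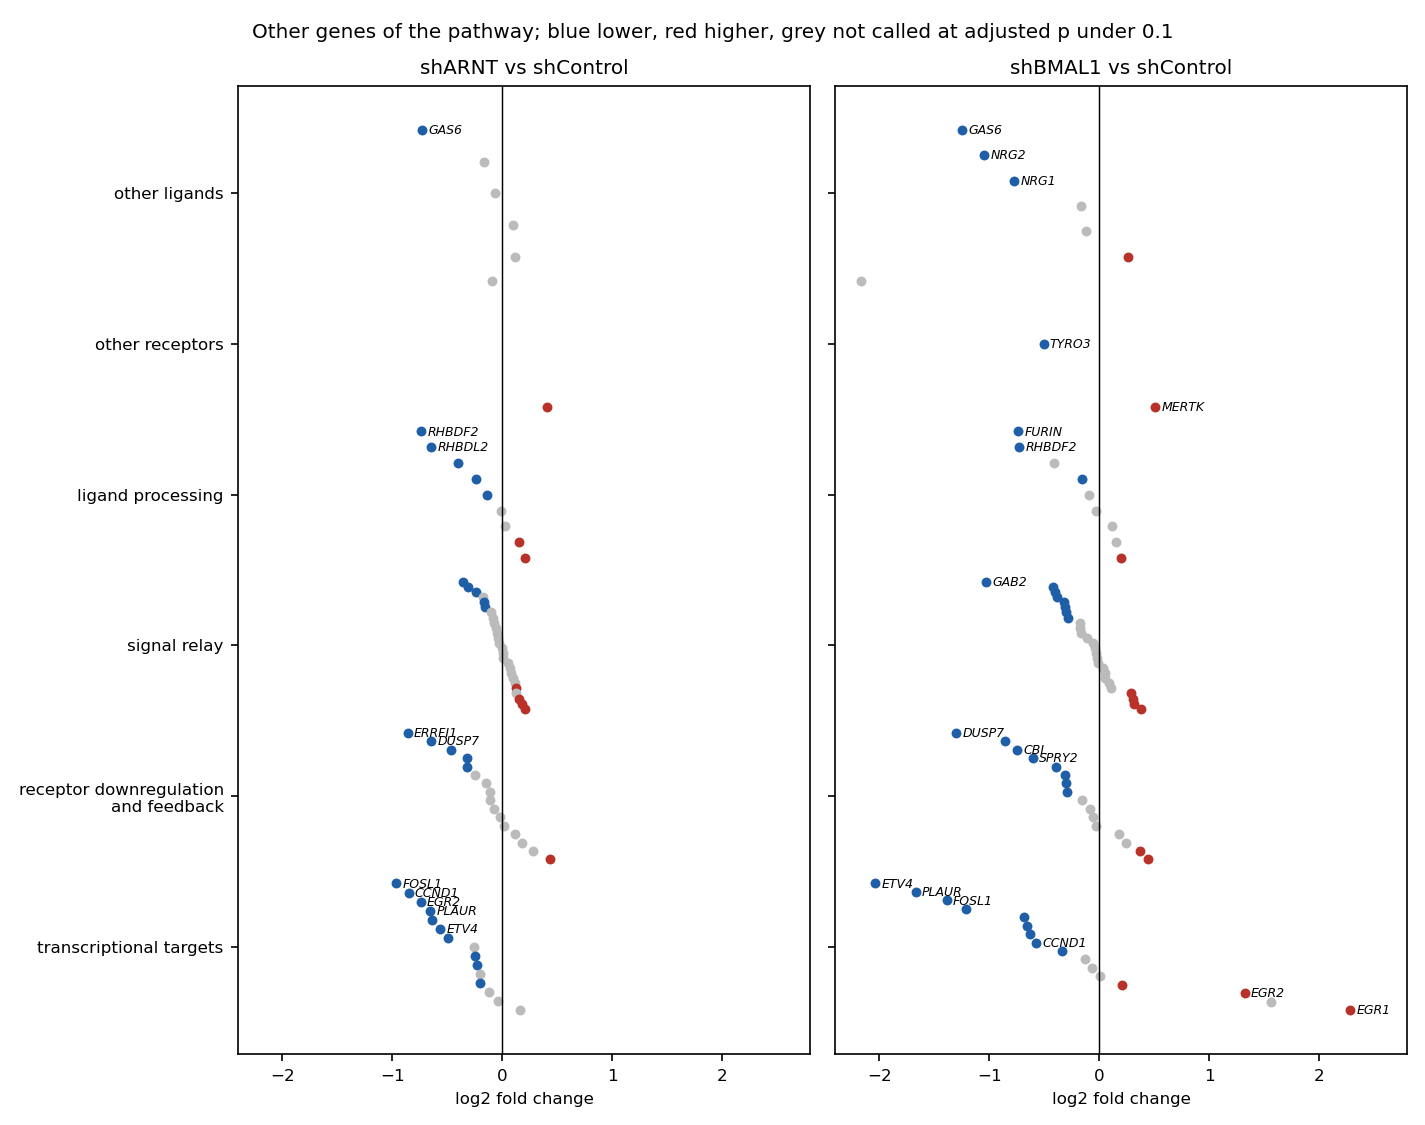
Log2 fold changes (horizontal axis) of the tested genes of the 6 pathway lists (rows) in shARNT and in shBMAL1 against shControl, with 1 point per gene, coloured by call. Genes picked by the naming rule (at most 4 per list and comparison) are labelled where called and changed by at least 0.5. In shARNT 10 of 15 genes that growth factor signalling is known to induce were called lower and 0 higher, where 19% and 16.5% of all genes were, and in shBMAL1 EGR1 and EGR2 stand far to the right, at 2.28 and 1.32.

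The genes whose pattern over the 9 libraries was most like that of TGFA were ranked by Pearson's r of log2 normalised read counts among 11822 genes, as a description only, since the libraries fall into 3 groups and r over them mostly restates the group means. The first 5 were ACKR3 (r = 0.994), PTGFRN (0.984), SLC39A14 (0.983), SARS (0.981) and PCK2 (0.979). ACKR3, a scavenging chemokine receptor, averaged 1339 normalised read counts with shControl, 142.0 with shARNT and 645.0 with shBMAL1, a wider span than that of TGFA in the same order. PCK2, mitochondrial phosphoenolpyruvate carboxykinase, had means of 5266, 2293 and 4165. Most like EGFR were HLA-DMB (r = 0.988), MAP3K12 (0.984), MCM6 (0.980), COL4A5 (0.979) and DYNC2H1 (0.977), of which HLA-DMB had means of 45.9, 45.5 and 297.2 and MCM6, a subunit of the replicative helicase, of 6658, 6729 and 8171.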

How the data were processed

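Polyadenylated RNA of 9 libraries of 786-O cells was analysed, 3 per group, with groups and replicate numbers taken from the labels. The authors deposited estimated counts (total reads per gene, linear scale). Per the study's methods, SeqMan NGen mapped the paired-end reads (GRCh37) and ArrayStar gave the counts; the submitters' processing notes instead name hg38, STAR and DESeq2, and the table holds no coordinates that could settle this. The placeholder 0.009 filled 46.3% of cells and was set to 0, fractional counts (6.14% of the other cells) were rounded, and 53 rows that shared a name were added to their namesakes. In 28 rows a date stood in place of the symbol, and these were not named.

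Each comparison was fitted in DESeq2 1.42.0 (R 4.3.3) on its 6 libraries with median-of-ratios size factors, the two-sided Wald test, independent filtering and Benjamini-Hochberg adjustment over all genes tested, and called at an adjusted p under 0.1. Intervals are 95% and n is 3 libraries per group. Normalised read counts were obtained with size factors over all 9 libraries, and their intervals and spread cover these libraries only. The members and lists were chosen with earlier results of these data known. From each list, called genes that averaged 50 or more normalised counts were eligible to be named, at most 4 per comparison by size of change. The genes most like TGFA and EGFR had a mean of at least 100. Gene positions are those of GENCODE in its lift to GRCh37, and start sites and promoter letters from RefSeq on GRCh38.p14, and the 2 builds were not mixed.

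Libraries of 1 group differed by more than sampling noise (chi-square per degree of freedom 7.60 to 17.6), so none was a copy of another. Alternatives were edgeR 4.0.16 with TMM scaling, TMM size factors in DESeq2, other low-count filters, a threshold of 0.05, 1 fit of all libraries, the replicate number as a block, each library left out in turn and other rounding. Adding EGFR-AS1 to EGFR and leaving out 15 mitochondrial genes were chosen after seeing the data. Amino acid sequences were not used here.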

Additional observations from a re-analysis of the deposited data

How the results depend on the processing

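Under each alternative run, the counts of members and of pathway genes called stayed within 1.5 times the reported ones (48 of 48 each). Leaving out 1 library gave 4 to 5 members called in shARNT, 7 in shBMAL1 and 6 in the direct comparison, and 25 to 30, 36 to 42 and 32 to 40 pathway genes. Of the members' log2 fold changes under the alternatives, 461 kept their direction and call, 2 lost the call (EREG in shARNT, when 1 library was left out) and 14 changed sign, all in results that were not called, and the cause of these was not tested. EGFR in shARNT changed sign with edgeR (−0.0039), with TMM size factors (−0.0095) and in 1 fit of all libraries (−0.0019), and ran from −0.055 to 0.076 when 1 library was left out. Leaving out 1 library also gave −0.44 to 0.30 for ERBB3 in shARNT, −1.29 to 0.0048 for ERBB3 in shBMAL1, −0.13 to 0.037 for AREG and −0.67 to 0.17 for BTC in the direct comparison. It gave −0.015 to 0.060 for ADAM10 and −0.029 to 0.041 for SHC1 in shARNT, −0.11 to 0.078 for GRB2 in shBMAL1, and −0.13 to 0.25 for MERTK and −0.043 to 0.050 for RHBDF2 in the direct comparison. Per kilobase of the longest transcript instead of all exons, the levels in shControl were 7363 for MET, 2978 for AXL, 2773 for TGFA, 1187 for EREG, 741.3 for ERBB2, 502.6 for EGFR, 369.7 for AREG, 40.95 for HBEGF and 2.305 for ERBB3, in the same order. The overlaps changed with this length. ERBB2 (716.8 to 764.8), EGFR (467.1 to 552.9) and AREG (351.4 to 396.5) were then apart, while BTC (2.276 to 5.652) and ERBB3 (0.4788 to 3.855) overlapped.

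The labels do not say whether libraries with the same replicate number were handled together, and the main fits did not pair them. The deviations of same-numbered libraries correlated between −0.152 and 0.105 over 9 pairs, 1 of which was over 0.1, and 1 library correlated best with its own number. Those of different-numbered libraries ran from −0.266 to 0.235. With 3 libraries per group this check cannot exclude a pairing. With the replicate block, 5, 7 and 6 members and 28, 38 and 38 pathway genes were called in shARNT, shBMAL1 and the direct comparison, and BTC in the direct comparison became 0.0321. Of the calls described for other genes, the block ended those of MERTK in shARNT (adjusted p = 0.133) and shBMAL1 (0.105), ADAM17 in shARNT (0.101) and shBMAL1 (0.146), EGR2 in shARNT (0.122) and JUNB in shBMAL1 (0.115). The depth limits BTC and ERBB3, where the 95% intervals of the log2 fold changes spanned more than 2 units.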
